A study of Mus musculus with 40 samples.

Results

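The 10 tumors described here are the 5 chitin + anti-PD-1-treated and the 5 anti-PD-1-treated primary tumors of the 66cl4-based model, chosen by treatment label from the 39 tumors with RNA-sequencing values of 40 in the series. The study asked whether chitin, which binds chitinase-like proteins (CLPs), acts together with blockade of programmed death (PD)-1 in mouse models of triple-negative breast cancer. All groups were WT female BALB/c mice, inoculated through the nipple into the milk ducts while lactating, with luciferase-expressing 66cl4 or 4T1 mammary tumor cells. Both groups compared here received the anti-PD-1 antibody (clone RMP1-14 as mIgG1e3, 200 µg i.p. weekly), and only the combination group also received chitin particles (1 mg i.p. every 3 d), both from 3 w after inoculation. Primary tumors were taken at 5 w after inoculation, so the comparison asks what chitin added to PD-1 blockade. The other 66cl4 groups, used for the test of a difference, were untreated or received chitin alone, and the corresponding 4T1 groups had the same 2 treatments. Tumors of 1 group were separately labelled samples, but whether each came from another mouse is not given in the sources used here.

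PD-1 is an inhibitory receptor of activated T cells, and antibodies against it release T cells from that brake. CLPs such as CHI3L1 and CHI3L3 bind chitin without cleaving it, are secreted by macrophages, neutrophils and epithelium, and are known for their link to type 2 immunity and to immunosuppressive myeloid cells in tumors. The 66cl4 line came from the same spontaneous BALB/c mammary carcinoma as 4T1.

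The tumors expressed the genes of a mammary tumor line with infiltrating leukocytes. Krt8, a keratin of luminal epithelium, had 3190 to 4962 normalized read counts in the 10 tumors, whereas Epcam, an epithelial adhesion molecule, ran from 1.12 to 111. Vim, the mesenchymal filament vimentin, had 18029 to 26509 and Ptprc, the leukocyte antigen CD45, 743 to 1396 normalized read counts. Normalized read counts are the recovered reads of a gene divided by the size factor of its tumor. Differences between groups are given on the scale of the deposited values, a variance stabilizing transformation (VST) that runs like log2 for high counts and is compressed for low ones, as the combination mean minus the anti-PD-1 mean. The library totals differed between the groups, at 5802662 to 13084865 reads in the combination tumors and 5755757 to 7745140 in the anti-PD-1 tumors (means 9441593 and 6399535, exact permutation test, two-sided, p = 0.0397, where 5 against 5 tumors allow 0.00794 at the least). Each gene below was therefore also compared at an equal depth of 5105898 reads per tumor.

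Chitin added to anti-PD-1 gave no gene past an adjusted p of 0.05 in these tumors. Of 14318 genes tested with limma, 0 were called, and the smallest adjusted p was 0.102 (Fabp5). At an unadjusted p under 0.05 there were 1188 genes, 8.3% of those tested, of which 546 (3.81%) were higher and 642 (4.48%) lower in the combination tumors. With limma-voom on the recovered reads, 0 genes were called and 1146 (8%) had an unadjusted p under 0.05, and at equal depth 0 were called and 1167 (8.15%) had such a p. The values of all 5 combination tumors lay above those of all 5 anti-PD-1 tumors for 115 genes (0.803%) and below them for 162 genes (1.13%). Differences were small, with a median size of 0.06 over all genes and a median difference of 0.00. In all, 7453 genes (52.1%) were higher, and 97 genes differed by more than 0.5. Adjusted p-values of single genes below are from limma with Benjamini-Hochberg adjustment over all genes, and no gene named in this comparison was under 0.05.

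**Figure D1:**
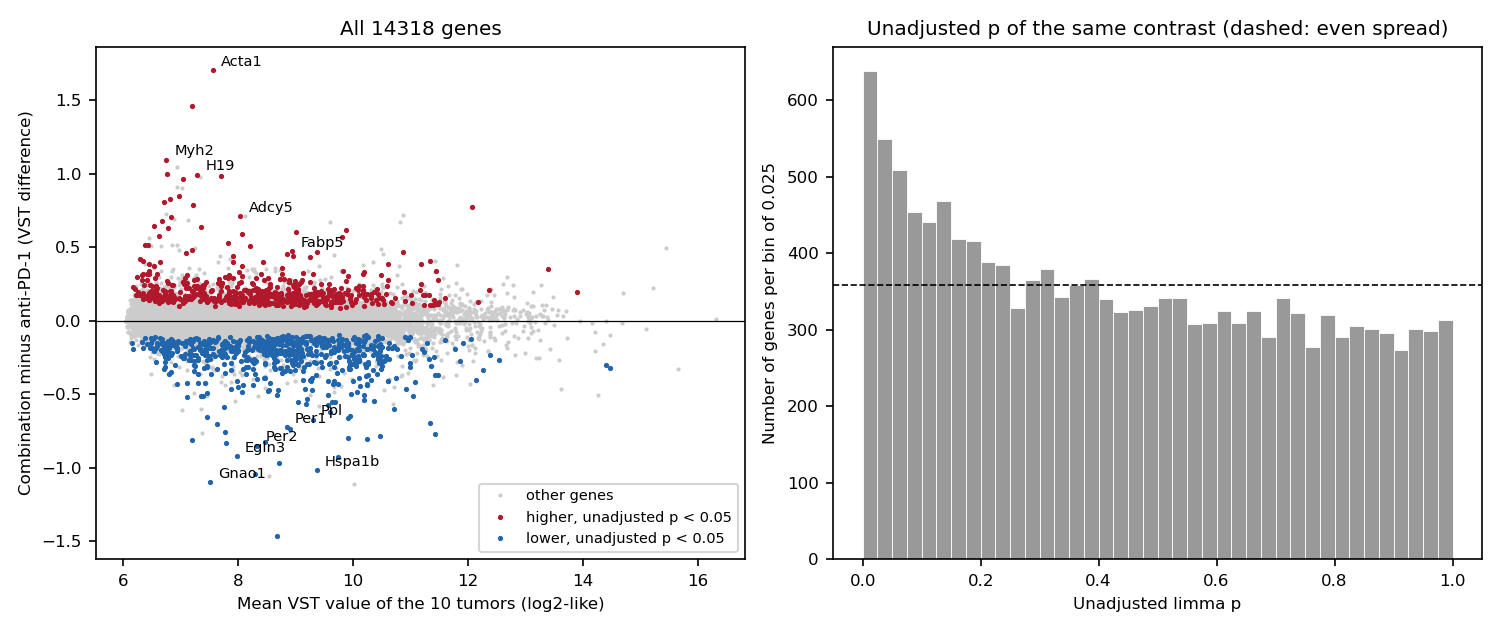
Left, the difference between combination and anti-PD-1 66cl4 tumors (VST units) of each of the 14318 genes against its mean VST value in the 10 tumors, with the 546 higher genes at an unadjusted p under 0.05 in red and the 642 lower ones in blue. Right, the number of genes per bin of the unadjusted limma p, where the first bins stand above the dashed line of an even spread and no gene passed an adjusted p of 0.05.

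The gene with the smallest p was Fabp5, which encodes a fatty acid-binding protein of epithelial cells and macrophages (chromosome 3, 10012585 to 10016610, GRCm38). It had 438, 491, 447, 446 and 462 normalized read counts in combination tumors 1 to 5 and 312, 314, 374, 228 and 270 in anti-PD-1 tumors 1 to 5. The groups did not overlap, and the combination tumors spread less (SD 21.1 against 54.8). Fabp5 was higher by 0.48 (SE 0.08, adjusted p = 0.102), and by 0.41 to 0.54 when each tumor was left out in turn. The mouse genome holds processed copies of Fabp5, and how the counting shared reads among such copies is not given in the sources used here.

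Adcy5, an adenylyl cyclase that makes cyclic AMP (chromosome 16, 35154494 to 35305743), had the largest difference among the 12 higher genes with the smallest p. Its normalized read counts were 202, 317, 160, 265 and 167 in the combination tumors and 84.7, 105, 80.8, 88.8 and 116 in the anti-PD-1 tumors. No combination tumor came down to the level of the anti-PD-1 group, and Adcy5 was higher by 0.71 (SE 0.15, adjusted p = 0.217). Next by p were genes with smaller differences. Mex3a, an RNA-binding protein, was higher by 0.45, Dennd2b, an activator of Rab GTPases, by 0.37, and Arhgap25, a GTPase-activating protein of blood cells, by 0.29. The zinc finger genes Zfp433 and Zfp345 were higher by 0.30 and 0.23, Snn by 0.27 and Tmem268 by 0.26. Chmp2b, of the membrane-remodelling ESCRT-III complex, was higher by 0.21, the pro-apoptotic gene Bid by 0.18 and the kinase gene Mok by 0.18, the last at 6.73 to 10.1 against 2.39 to 5.94 normalized read counts. Arhgap25 alone of these 12 genes overlapped between the groups, while over all genes 0.803% had every combination tumor above every anti-PD-1 tumor. The 12 genes were picked by p on the same values, so their lack of overlap adds nothing to their p.

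Among the lower genes, Ppl led by p. It encodes periplakin, a plakin protein that links desmosomes to filaments (chromosome 16, 5086291 to 5132481). Its normalized read counts were 306, 402, 487, 320 and 382 in the combination tumors and 623, 748, 563, 868 and 581 in the anti-PD-1 tumors. The highest combination tumor stayed below the lowest anti-PD-1 tumor, and Ppl was lower by a difference of -0.67 (SE 0.13, adjusted p = 0.194). Cgnl1 and Msln were also among the 12 lower genes with the smallest p. Cgnl1, a tight junction-associated protein, ran from 834 to 1073 in the combination tumors and from 1209 to 2829 in the anti-PD-1 tumors (-0.79, SE 0.19, adjusted p = 0.406). Msln, the surface antigen mesothelin, ran from 1070 to 1371 and from 1654 to 2237 (-0.60, SE 0.14, adjusted p = 0.406), with no overlap between the groups in either gene.

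Further lower genes were Cep170b, a microtubule-associated protein, at 350 to 408 against 490 to 635 normalized read counts (-0.46), and Aifm2, an oxidoreductase that protects cells from ferroptosis, at 239 to 283 against 318 to 394 (-0.32). Mthfd1l, of mitochondrial folate metabolism, differed by -0.39, and Plekhn1 by -0.46. The homeobox gene Dlx3 differed by -0.44, Gse1 by -0.33 and the sialyltransferase gene St3gal1 by -0.29. Hgsnat, a lysosomal enzyme of heparan sulfate breakdown, was at 867, 702, 702, 639 and 669 in the combination tumors and at 1438, 1144, 718, 1023 and 1075 in the anti-PD-1 tumors (-0.50, SE 0.11, adjusted p = 0.406). Anti-PD-1 tumor 3 was the lowest of its group for Hgsnat and lay inside the range of the combination tumors.

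**Figure D2:**
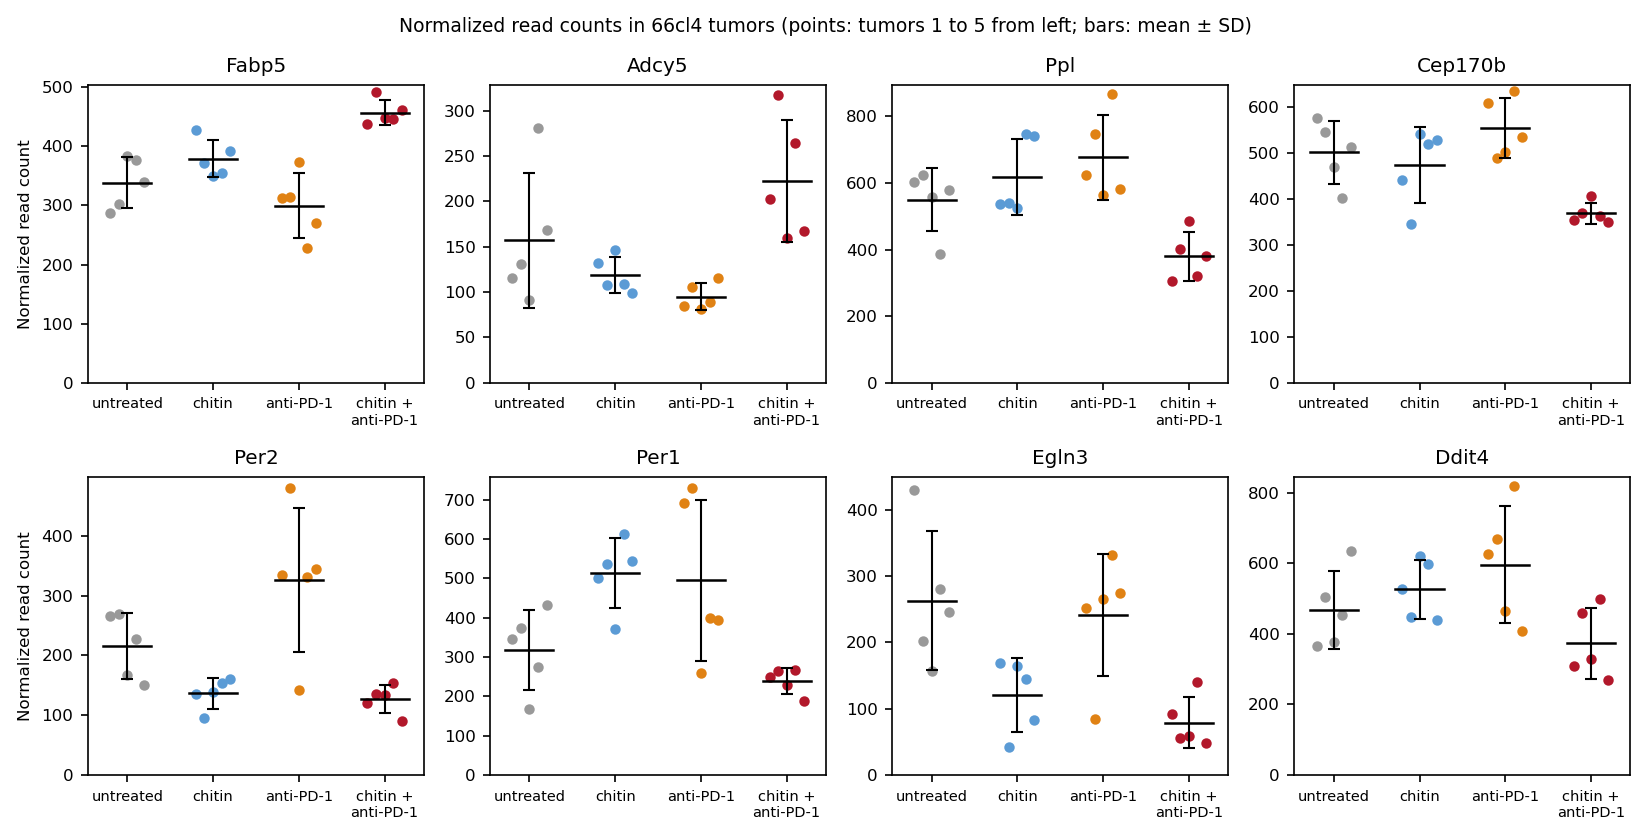
Normalized read counts of 8 genes in the 4 groups of 66cl4 tumors, with a point per tumor and the mean ± SD of each group (n = 5) in black. For Fabp5, Adcy5, Ppl and Cep170b the combination tumors do not overlap the anti-PD-1 tumors, whereas for Per2, Per1, Egln3 and Ddit4 1 or more anti-PD-1 tumors reach into the combination range.

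Genes of the circadian clock were lower in the combination tumors. The clock is a feedback loop in which Bmal1 and Clock activate the Per and Cry genes through E-box elements, and Per and Cry proteins then repress that activation. Per1 is also induced by glucocorticoids and by growth signals. All 15 listed clock genes were in the table, 12 of them were lower and 3 higher, and 8 had an unadjusted p under 0.05, all lower, beside 4.48% of all genes. The median difference of the list was -0.29, beside 0.00 over all genes.

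Per2 (chromosome 1, 91415977 to 91459351) had 121, 136, 134, 155 and 89.8 normalized read counts in the combination tumors and 335, 479, 143, 331 and 344 in the anti-PD-1 tumors. Anti-PD-1 tumor 3 was as low as the combination group, and the other 4 were above every combination tumor. Per2 was lower by a difference of -0.85 (SE 0.16, adjusted p = 0.194), and without anti-PD-1 tumor 3 the difference was -1.04 with an adjusted p of 0.0010. With any other single tumor of the 2 groups left out, the smallest adjusted p of any gene was 0.156 to 0.438. Per1 had 250, 266, 229, 267 and 187 in the combination tumors and 691, 730, 259, 399 and 395 in the anti-PD-1 tumors (-0.72, SE 0.19, adjusted p = 0.423). Here too only anti-PD-1 tumor 3 lay within the combination range.

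Of the other clock genes, Bhlhe41, a repressor of the loop, ran from 196 to 336 against 318 to 431 normalized read counts (-0.36) and Cry2 from 120 to 176 against 150 to 264 (-0.31). Cry1 differed by -0.29, Ciart by -0.21, Per3 by -0.40 and Tef by -0.37, and these 4 were named after their values were seen. The most abundant clock gene, Nr1d2, the repressor REV-ERB-beta, differed by 0.02 (SE 0.17). Anti-PD-1 tumor 3 had the lowest list mean of its group, at 8.08 on the VST scale, against 8.38 to 8.52 in the other anti-PD-1 tumors and 7.99 to 8.26 in the combination tumors. The number of clock genes lower at an unadjusted p under 0.05 was 7 at equal depth and ranged from 5 to 9 when each tumor was left out. Without anti-PD-1 tumor 4, 1 clock gene was higher at such a p. The hour of tumor collection is not given in the sources used here, and its part in these values was not tested.

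The E-box of the clock, CACGTG, was looked for on both strands of the 250 bases before the start site, in RefSeq promoters of GRCm38.p6. It reads the same on both strands and contains ACGTG, the core of the hypoxia response element, which was searched as well. Of all 27025 promoters 6.05% held CACGTG, 8.21% of the 11215 promoters of measured genes did, and of the 13 clock genes with a promoter sequence 5 did (38.5%). The promoters of Per1 and Bhlhe41 are shown, with the match in capitals, since both held the element and were among the clock genes with the smallest p, and that of Cry2 did not hold it. They lie at chr11:69098699-69098948 on the plus strand (Per1) and chr6:145865421-145865670 on the minus strand (Bhlhe41).
Per1: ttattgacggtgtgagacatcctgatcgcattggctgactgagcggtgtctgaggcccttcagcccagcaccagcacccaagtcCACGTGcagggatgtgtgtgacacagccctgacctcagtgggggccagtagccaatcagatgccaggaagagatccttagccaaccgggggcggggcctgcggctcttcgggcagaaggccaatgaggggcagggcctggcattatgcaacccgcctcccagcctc
Bhlhe41: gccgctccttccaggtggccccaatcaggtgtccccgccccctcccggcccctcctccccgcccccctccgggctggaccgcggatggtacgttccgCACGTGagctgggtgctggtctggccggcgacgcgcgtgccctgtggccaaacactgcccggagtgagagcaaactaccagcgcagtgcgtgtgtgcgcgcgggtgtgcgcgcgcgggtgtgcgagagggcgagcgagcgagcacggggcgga

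Another 4 genes were picked after their values were seen and belong to no list used here, and no hormone response was tested. Tsc22d3, which encodes the glucocorticoid-induced leucine zipper protein, had 606, 776, 683, 748 and 547 normalized read counts in the combination tumors and 1112, 1641, 764, 1184 and 1026 in the anti-PD-1 tumors. Anti-PD-1 tumor 3 was again the lowest of its group, and Tsc22d3 differed by -0.65 (SE 0.17, adjusted p = 0.419). Klf9 differed by -0.33 (adjusted p = 0.406) and Fkbp5, a chaperone of the glucocorticoid receptor, by -0.34 (adjusted p = 0.578). Sik1, a kinase induced by cyclic AMP, differed by -0.47, with 351 to 484 against 491 to 728 normalized read counts.

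Genes of glycolysis and the hypoxia response were lower as well. Cells short of oxygen stabilise HIF-1, which binds hypoxia response elements and induces glucose uptake, glycolysis and Vegfa. All 19 listed genes were in the table and all 19 were lower, with a median difference of -0.27, and 4 had an unadjusted p under 0.05, beside 4.48% of all genes. Egln3, the prolyl hydroxylase that is itself a HIF target (chromosome 12, 54178981 to 54203874), had 91.6, 55.4, 59.2, 141 and 47.7 normalized read counts in the combination tumors and 252, 85.2, 265, 331 and 274 in the anti-PD-1 tumors. Only anti-PD-1 tumor 2 reached the combination range, and Egln3 differed by -0.92 (SE 0.23, adjusted p = 0.406).

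Slc2a1, the glucose transporter GLUT1, had 1049, 766, 635, 785 and 736 in the combination tumors and 1495, 764, 1352, 1659 and 766 in the anti-PD-1 tumors (-0.49, SE 0.21, adjusted p = 0.557). Vegfa, the main growth factor of blood vessels, ran from 144 to 313 against 202 to 511 (-0.51, adjusted p = 0.556), and Hk2, which phosphorylates glucose, from 464 to 576 against 546 to 906 (-0.28, adjusted p = 0.53). The most abundant member was Pkm, the last enzyme of glycolysis, with a difference of -0.20 (SE 0.14). The anti-PD-1 group was uneven in these genes. Its tumors 2 and 5 had list means of 10.30 and 10.33 on the VST scale, like the combination tumors at 10.25 to 10.58, while its tumors 1, 3 and 4 had 10.85, 10.79 and 11.11. Without anti-PD-1 tumor 4, 1 of the 19 genes was lower at an unadjusted p under 0.05 (median -0.15), and without tumor 2 or without tumor 5 it was 12. Without combination tumor 1 it was 7.

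The promoters of Egln3 and Slc2a1 both held ACGTG before the start site, as did 16.6% of all 27025 promoters, 21.4% of the 11215 promoters of measured genes and 9 of the 18 listed genes with a promoter sequence (50%). They are printed with the match in capitals because both genes had an unadjusted p under 0.05. Of the other 2 genes with such a p, Hk2 also held ACGTG and Vegfa did not in this window. The positions are chr12:54203875-54204124 on the minus strand (Egln3) and chr4:119108495-119108744 on the plus strand (Slc2a1).
Egln3: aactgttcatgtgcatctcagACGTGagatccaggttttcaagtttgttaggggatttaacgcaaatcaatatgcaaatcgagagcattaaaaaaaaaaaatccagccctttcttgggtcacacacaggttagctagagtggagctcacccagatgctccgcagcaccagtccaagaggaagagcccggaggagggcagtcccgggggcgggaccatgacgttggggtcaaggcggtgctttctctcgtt
Slc2a1: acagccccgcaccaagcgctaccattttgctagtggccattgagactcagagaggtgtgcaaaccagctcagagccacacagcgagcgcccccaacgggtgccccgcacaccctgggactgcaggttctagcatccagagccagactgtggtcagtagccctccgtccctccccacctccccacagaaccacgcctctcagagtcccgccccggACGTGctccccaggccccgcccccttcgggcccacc

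Genes of the unfolded protein and amino acid stress response went the same way. Misfolded protein in the endoplasmic reticulum activates Atf4 and Xbp1, and a lack of amino acids activates Atf4. The targets of these factors include chaperones, Ddit3 and Ddit4. All 10 listed genes were lower, 6 of them at an unadjusted p under 0.05, beside 4.48% of all genes, with a median difference of -0.24. Ddit4, an inhibitor of mTOR that hypoxia and glucocorticoids also induce, had 308, 460, 330, 497 and 269 normalized read counts in the combination tumors and 625, 668, 463, 818 and 407 in the anti-PD-1 tumors (-0.53, SE 0.16, adjusted p = 0.449). Anti-PD-1 tumors 3 and 5 overlapped the combination group. Hspa5, the chaperone BiP, was at 4938 to 5737 against 5011 to 7586 (-0.27), Ddit3, the transcription factor CHOP, at 77.2 to 96.1 against 80.0 to 149 (-0.20). Xbp1 did not overlap between the groups, at 990 to 1300 against 1311 to 1599 (-0.20). At equal depth the count of 6 was 3, without anti-PD-1 tumor 1 it was 2, without combination tumor 3 it was 2, and without the 4 tumors high in muscle genes, given with the muscle genes, it was 1. All 10 genes were still lower in each case, except that without anti-PD-1 tumor 1 it was 9.

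Heat shock genes varied much within both groups. Hspa1b, an inducible HSP70 gene, had 461, 374, 231, 477 and 235 normalized read counts in the combination tumors and 1535, 640, 779, 1084 and 407 in the anti-PD-1 tumors (-1.02, SE 0.43, adjusted p = 0.557). Its near-identical copy Hspa1a differed by -0.83, and reads that fit both copies make the share of each uncertain. Dnajb1, a co-chaperone, differed by -0.22, and Hspa8, the constitutive form, by -0.12 (SE 0.11). Of 9 listed heat shock genes 6 were lower, 3 of them at an unadjusted p under 0.05, beside 4.48% of all genes. This count was 0 without anti-PD-1 tumor 1, without combination tumor 3 or without combination tumor 5. Without the tumors high in muscle genes, or with the muscle gene mean of each tumor in the fit, 0 had such a p. Of 12 immediate-early genes, Dusp1, a phosphatase that stress and glucocorticoids induce, was the only 1 with such a p, at 454 to 748 against 833 to 1392 normalized read counts (-0.66, SE 0.28, adjusted p = 0.557), with no overlap. Of 12 listed p53 targets and cell cycle inhibitors 10 were lower, and Cdkn1a, which encodes p21, was at 448 to 502 against 389 to 780 (-0.28, adjusted p = 0.579).

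**Figure D3:**
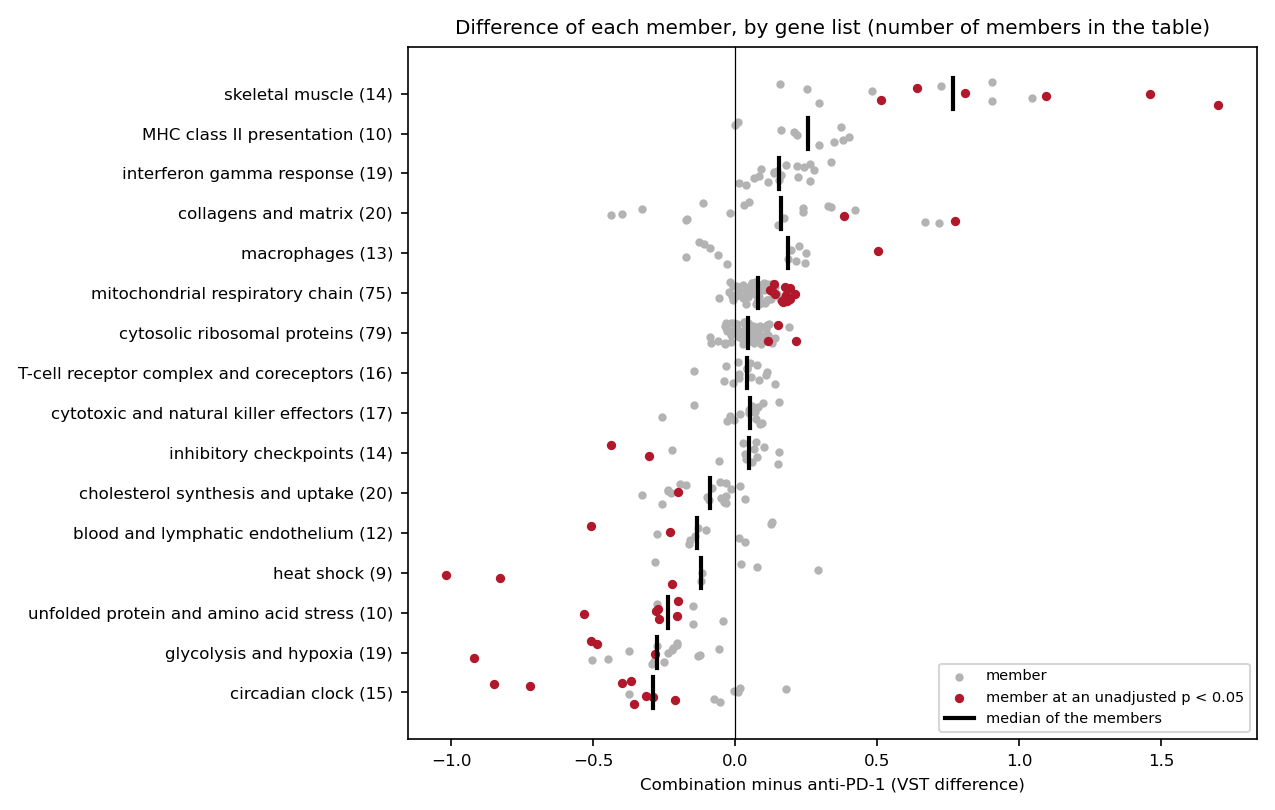
Difference between combination and anti-PD-1 66cl4 tumors (VST units) of every member of 16 gene lists, with members at an unadjusted p under 0.05 in red and the median of each list as a black bar. The clock, glycolysis and stress lists lie left of 0, the skeletal muscle list far to the right, and the T-cell, cytotoxic and checkpoint lists around 0.

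Genes of mitochondrial respiration were higher by small amounts. Of 75 measured subunits of the respiratory chain and ATP synthase, 69 were higher, 14 of them at an unadjusted p under 0.05 beside 3.81% of all genes, and the median difference was 0.08. Ndufa6, a subunit of complex I, had 394, 394, 421, 422 and 422 normalized read counts in the combination tumors and 349, 374, 379, 326 and 382 in the anti-PD-1 tumors, without overlap (0.14, SE 0.05, adjusted p = 0.513). Cox7a2, of cytochrome c oxidase, differed by 0.18 and Atp5l, of ATP synthase, by 0.18. The most abundant member, Atp5b, differed by 0.08 (SE 0.06). The 14 genes became 3 without combination tumor 5, 5 without anti-PD-1 tumor 5, 6 without anti-PD-1 tumor 4 and 7 without combination tumor 3. They were 1 both without the 4 tumors high in muscle genes and with the muscle gene mean of each tumor in the fit. With that mean in the fit, 49 of the 75 genes were higher and the median was 0.025.

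Of 79 cytosolic ribosomal protein genes, 65 were higher (median 0.04) and 3 had an unadjusted p under 0.05, among them Rps28 (0.15) and Rpl22 (0.12), which as a share is close to the 3.81% of all genes. Without combination tumor 5, 47 of the 79 were higher, with a median of 0.0089 and 0 at such a p. The median was 0.022 without the tumors high in muscle genes and 0.014 with the muscle gene mean in the fit, with 0 at such a p in both. Ribosomal protein genes have many processed copies, so the share of reads each received is uncertain. Proliferation genes were not separated, with 19 of 25 higher, a median of 0.03 and 0 at an unadjusted p under 0.05.

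The muscle genes themselves showed that the tumors differed in tissue content. All 14 listed skeletal muscle genes were higher in the combination group (median 0.77), 6 at an unadjusted p under 0.05, beside 3.81% of all genes, or 0 with limma-voom. These 6 were 2 or 3 without any 1 of anti-PD-1 tumors 1, 2, 4 and 5 or combination tumors 3, 4 and 5. They were 8 to 11 without anti-PD-1 tumor 3 or combination tumor 1 or 2. Acta1, skeletal muscle actin, had 1.68, 0.815, 1241, 565 and 720 normalized read counts in combination tumors 1 to 5 and 8.99, 2.84, 204, 0 and 1.19 in anti-PD-1 tumors 1 to 5. Combination tumors 3, 4 and 5 and anti-PD-1 tumor 3 thus carried muscle RNA, and the other 6 tumors almost none. Myh4, a fast myosin, followed the same tumors at 0, 2.44, 1078, 265 and 230 against 1.28, 0, 105, 0 and 1.19, and Ckm, creatine kinase, at 0.84, 1.63, 411, 106 and 145 against 3.85, 2.84, 59.4, 2.50 and 3.58. Myh2 (1.09), Mb (0.51), which encodes myoglobin, and Ryr1 (0.64), the calcium channel of muscle, were the other named members. The list mean was 8.58, 7.49 and 7.90 in combination tumors 3, 4 and 5 and 7.21 in anti-PD-1 tumor 3, against 6.34 to 6.44 in the other 6. The part of muscle RNA in the other gene groups was not tested beyond the values given here. In bulk tumors, fewer cells of a type and less RNA per cell cannot be told apart.

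Fat tissue did not follow treatment. The 12 adipocyte genes had their highest list means in combination tumor 1 (9.01) and anti-PD-1 tumor 2 (8.69), and Adipoq, the fat cell hormone adiponectin, had 164, 11.4, 8.27, 15.3 and 5.61 against 1.28, 101, 51.1, 1.25 and 0 normalized read counts. Without the 4 tumors high in muscle genes 0 genes were called and 645 had an unadjusted p under 0.05, and without the 2 tumors high in adipocyte genes 0 were called and 1299 had such a p. Without the muscle-bearing tumors, combination tumors 1 and 2 and anti-PD-1 tumors 1, 2, 4 and 5 remained. Among these 6 Fabp5 differed by 0.56, Adcy5 by 0.84, Ppl by -0.80, Per2 by -1.02, Per1 by -0.80 and Egln3 by -0.91. These sizes were at least those with all 10 tumors except for Egln3, which was 0.92 in size with all 10. Anti-PD-1 tumor 3, the lowest of its group for Per2 and Per1, was among the tumors left out. With the muscle gene mean of each tumor in the fit instead, 0 genes were called and 850 had an unadjusted p under 0.05. The genes with the smallest p were then Adcy5, Dennd2b and Rnd3, in place of Fabp5, Ppl and Per2. The part of muscle RNA in these differences was not tested beyond these fits. Without the muscle-bearing tumors 11 of 15 clock genes were lower and 4 higher, 6 of the lower ones at an unadjusted p under 0.05. Of 19 glycolysis genes 18 were lower, 1 at such a p. With the muscle gene mean in the fit 10 clock genes were lower and 5 higher (median -0.23), with 6 lower and 1 higher at such a p. All 19 glycolysis genes were lower in that fit, 3 at such a p (median -0.21).

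**Figure D4:**
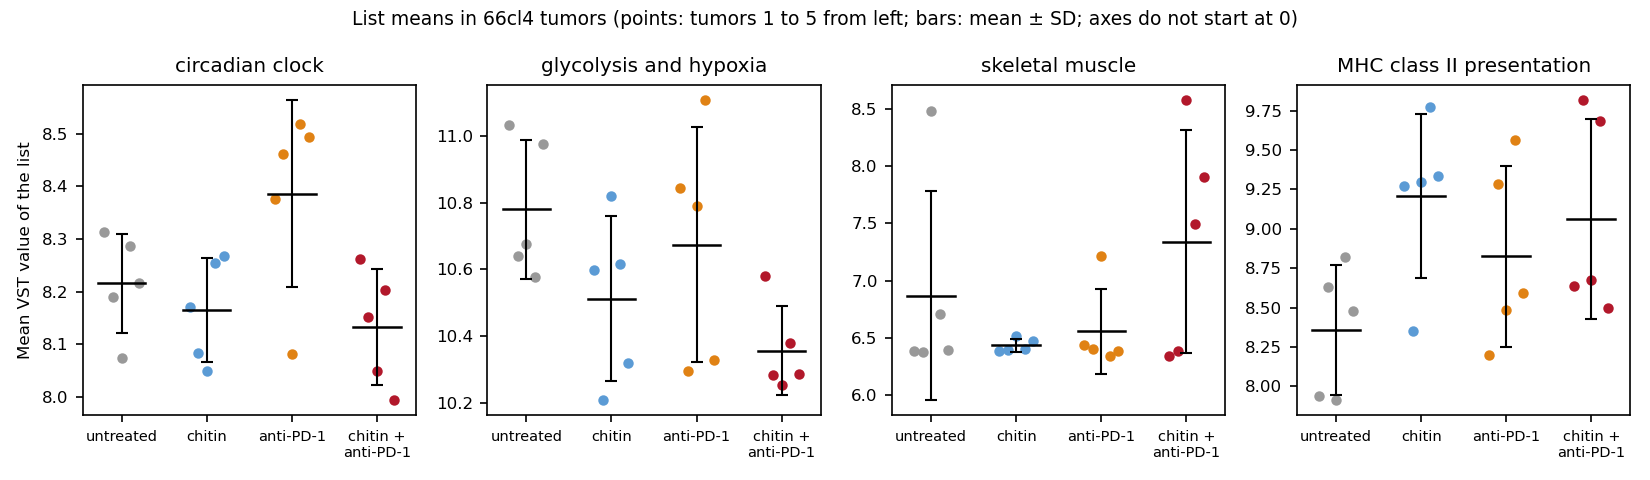
Mean VST value of 4 gene lists in each 66cl4 tumor, by treatment, with the mean ± SD of each group (n = 5) in black and axes that do not start at 0. Anti-PD-1 tumor 3 has the lowest clock mean of its group (8.08), muscle genes are high in combination tumors 3 to 5 (7.49 to 8.58) and anti-PD-1 tumor 3 (7.21), and the MHC class II means overlap between the groups.

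Markers of T cells and of their killing function were not separated between the groups. Of 16 measured genes of the T-cell receptor complex and its coreceptors 12 were higher and 0 had an unadjusted p under 0.05 (median 0.04), and likewise 12 of 17 cytotoxic and natural killer effector genes (median 0.05). Cd8a, the coreceptor of killer T cells, had 20.2, 44.8, 15.2, 17.9 and 13.5 normalized read counts in the combination tumors and 24.4, 29.4, 28.5, 35.0 and 31.0 in the anti-PD-1 tumors (-0.14, SE 0.09, adjusted p = 0.696). Cd3e, of the receptor complex, had 20.2, 49.7, 22, 35.8 and 18.5 against 23.1, 24.6, 32.1, 43.8 and 16.7 (0.01, SE 0.09). The groups overlapped in both genes, and combination tumor 2 was the highest of all 10 in both. For Cd8a combination tumors 1, 3, 4 and 5 lay below every anti-PD-1 tumor. Gzmb, the protease granzyme B, differed by -0.26 (SE 0.20), Prf1, perforin, by -0.15 (SE 0.28) and Ifng by 0.02 (SE 0.07), the last at 0 to 6.39 normalized read counts, where the depth limits what can be seen.

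Among 14 inhibitory checkpoint genes 2 had an unadjusted p under 0.05, both lower, beside 4.48% of all genes, while 10 of the 14 were higher and the median was 0.05. The 2 became 1 without anti-PD-1 tumor 4 and 3 without anti-PD-1 tumor 2 or 5 or combination tumor 1, and the median was 0.0091 without combination tumor 2. Tigit, an inhibitory receptor of T and natural killer cells, had 109, 105, 99.2, 169 and 131 normalized read counts in the combination tumors and 236, 128, 259, 185 and 210 in the anti-PD-1 tumors (-0.44, SE 0.13, adjusted p = 0.45). Only anti-PD-1 tumor 2 lay inside the combination range. Havcr2, the checkpoint TIM-3, had 30.2, 35.8, 25.5, 47.3 and 39.8 against 48.8, 44.5, 76.0, 113 and 38.2 (-0.30, SE 0.11, adjusted p = 0.528), with anti-PD-1 tumors 2 and 5 within the range of the combination tumors. Pdcd1, the gene of PD-1 itself, differed by 0.07 (SE 0.10), its ligand gene Cd274 by -0.06 (SE 0.14) and Lag3 by 0.16 (SE 0.12).

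Of 13 macrophage genes 7 were higher and 6 lower (median 0.19), and 1 had an unadjusted p under 0.05, beside 8.3% of all genes. The genes that follow are single genes and do not stand for the list. Ccr2, the chemokine receptor of inflammatory monocytes, had 842, 1285, 1102, 1102 and 932 normalized read counts in the combination tumors and 193, 745, 738, 1221 and 693 in the anti-PD-1 tumors (0.62, SE 0.29, adjusted p = 0.587). Cx3cr1, the fractalkine receptor of monocytes and macrophages, had 182, 332, 193, 262 and 208 against 41.1, 140, 209, 228 and 110 (0.50, SE 0.21, adjusted p = 0.556). In both genes anti-PD-1 tumor 1 was far below the rest and anti-PD-1 tumor 4 within the combination range, as was anti-PD-1 tumor 3 for Cx3cr1. Cx3cl1, the ligand of Cx3cr1, went the other way, with Cx3cl1 at 146 to 199 against 205 to 241 (-0.26, SE 0.08, adjusted p = 0.449). Cxcl12, a chemokine of stromal cells, was at 2655 to 3248 against 1381 to 3188 (0.40, adjusted p = 0.556).

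General macrophage markers were less apart. C1qa, a complement component of macrophages, differed by 0.25 (adjusted p = 0.627), Csf1r by 0.25 (adjusted p = 0.699) and Lyz2, lysozyme, by 0.22 (adjusted p = 0.699), and Itgam, the integrin CD11b, by -0.09 (SE 0.16). Folr2, a folate receptor of tissue-resident macrophages, did not overlap, at 1296 to 1398 against 1072 to 1228 normalized read counts (0.21, SE 0.09, adjusted p = 0.557). Spp1, osteopontin, was at 12445 to 20242 against 16335 to 32473 (-0.51, SE 0.25, adjusted p = 0.613). Of 12 markers of M2-type macrophages 10 were higher, 1 of them at an unadjusted p under 0.05, beside 3.81% of all genes. Of 11 M1-type markers 9 were higher, 1 with such a p and 1 lower member with it. These were Tnf, at 26.1 to 39.8 against 19.9 to 30.9 (0.15, adjusted p = 0.579), and Nos2, inducible nitric oxide synthase, at 21.2 to 43.7 against 37.0 to 67.7 (-0.23, adjusted p = 0.561). Xcr1, the receptor that marks cross-presenting dendritic cells, was at 31.9 to 71.6 against 18.0 to 44.5 (0.26, adjusted p = 0.555). Among 12 Toll-like receptor genes, Tlr1 (0.23, adjusted p = 0.515) and Tlr6 (0.19, adjusted p = 0.477), which pair with Tlr2 to sense bacterial lipopeptides, had an unadjusted p under 0.05, beside 3.81% of all genes. Tlr2 itself differed by 0.15 (adjusted p = 0.724).

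Antigen presentation genes separated tumors, not groups. H2-Ab1, an MHC class II chain, had 790, 3033, 865, 2874 and 736 normalized read counts in the combination tumors and 447, 1881, 634, 2313 and 742 in the anti-PD-1 tumors. Tumors 2 and 4 of each group were high and tumors 1, 3 and 5 low. All 10 listed MHC class II genes were higher in the combination group (median 0.26) with 0 at an unadjusted p under 0.05, and H2-Ab1 (0.40, SE 0.48), Cd74 (0.30, SE 0.54) and their activator Ciita (0.35, SE 0.32) had standard errors as large as or close to their differences. All 19 interferon gamma response genes were higher too (median 0.15), again with 0 at such a p, and Irf1 differed by 0.09 (SE 0.11). These counts rested on single tumors, since 12 of the 19 interferon genes were higher without combination tumor 2 (median 0.05) and 13 without combination tumor 4 (median 0.06), where the MHC class II medians were 0.06 and 0.08. With limma-voom 15 of the 19 and 8 of the 10 were higher. Of 12 MHC class I genes 10 were higher, and Psmb10, an immunoproteasome subunit, was at 561 to 794 against 506 to 652 (0.21, adjusted p = 0.579).

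RNA of the CLPs that chitin binds was low for 3 of the 4 measured genes, and none of the 4 had an unadjusted p under 0.05. Chil1, the gene of CHI3L1, had 60.5, 41.6, 11, 35.8 and 0.561 normalized read counts in the combination tumors and 3.85, 79.6, 17.8, 13.8 and 10.7 in the anti-PD-1 tumors (0.07, SE 0.25, adjusted p = 0.952). Its values ran over more than an order of magnitude within each group. Chil3, the gene of CHI3L3, was at 0 to 3.44 against 0 to 4.75 (0.09, SE 0.09) and Ovgp1 at 0 to 2.76 against 0 to 4.77 (-0.06), levels of a few reads at which a difference was not detectable. Chid1, the fourth measured CLP gene, was evenly expressed at 527 to 595 against 505 to 567 (0.02, SE 0.06).

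Of the receptors that bind CLPs or chitin, Cd44 and Lgals3 were lower. Cd44, an adhesion receptor, had 1911, 1643, 1826, 1459 and 1952 normalized read counts in the combination tumors and 1864, 2193, 2646, 3932 and 1785 in the anti-PD-1 tumors (-0.42, SE 0.16, adjusted p = 0.551), where anti-PD-1 tumor 4 stood highest. Lgals3, galectin-3, had 1680, 1192, 1310, 1436 and 1331 against 2481, 1365, 2156, 2199 and 1321 (-0.39, SE 0.18, adjusted p = 0.579), and its anti-PD-1 tumors 2 and 5 lay among the combination tumors, as they did for the glycolysis genes. Clec7a, the glucan receptor dectin-1, differed by 0.36 (SE 0.20, adjusted p = 0.652) and Tmem219, a CHI3L1 receptor subunit, by 0.03 (SE 0.08). Of 9 measured members of this list, 2 thus had an unadjusted p under 0.05, both lower, beside 4.48% of all genes.

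Type 2 immunity genes gave a value in each direction. Il1rl1, the receptor ST2 of interleukin-33, had 1898, 1319, 1806, 1902 and 2877 normalized read counts in the combination tumors and 3558, 1938, 3740, 4187 and 2925 in the anti-PD-1 tumors (-0.70, SE 0.24, adjusted p = 0.51). Only anti-PD-1 tumor 2 lay inside the combination range. Ccl24, an eosinophil chemokine made by macrophages, had 362, 263, 269, 197 and 320 against 148, 166, 181, 188 and 257 (0.40, SE 0.17, adjusted p = 0.557), and Il4ra differed by 0.19 (adjusted p = 0.655). The RNA of the cytokines that were measured as protein in tumor lysates differed little. Of 10 genes, Tnf alone had an unadjusted p under 0.05, while Il1b differed by 0.20 (SE 0.16), Cxcl2 by -0.27 (SE 0.19), Ccl2 by 0.00 (SE 0.22) and Tgfb1 by 0.01 (SE 0.08). Il6, Csf3, Il10 and Il4 were at 0 to 16.3 normalized read counts in all 10 tumors. Il12b, of interleukin-12, was at 16.8 to 34.2 against 5.13 to 28.4 (0.18, adjusted p = 0.632).

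Of 20 collagen and matrix genes 13 were higher and 7 lower, and 2 had an unadjusted p under 0.05, both higher, beside 3.81% of all genes. The median was 0.16, and 0.066 without anti-PD-1 tumor 1. Leaving out each tumor gave 1 to 6 higher genes at such a p, the 6 without anti-PD-1 tumor 2. Without the tumors high in muscle genes 0 higher genes and 1 lower gene had such a p, with a median of 0.13. With the muscle gene mean in the fit 1 higher gene had such a p, with a median of 0.056. Col1a2 had 2344, 2004, 2380, 1988 and 2030 normalized read counts in the combination tumors and 914, 1614, 1983, 725 and 1690 in the anti-PD-1 tumors, with no overlap (0.67, SE 0.35, adjusted p = 0.628). Col3a1 had 5212, 7334, 4726, 8639 and 3138 against 2051, 7783, 3163, 2522 and 2397 (0.77, SE 0.34, adjusted p = 0.57), where anti-PD-1 tumors 2 and 3 lay within the combination range. Col5a2 differed by 0.38 (adjusted p = 0.551) and Col1a1 by 0.72 (adjusted p = 0.627), whereas Fn1, fibronectin, the most abundant matrix gene, differed by -0.33 (SE 0.22). Snai2, a transcription factor of mesenchymal transition, was at 84.4 to 125 against 48.7 to 106 (0.29, SE 0.09, adjusted p = 0.449), Smad7, the feedback inhibitor of TGF-beta signaling, at 304 to 383 against 335 to 478 (-0.27, adjusted p = 0.513) and Mmp19 at 161 to 216 against 194 to 284 (-0.20, adjusted p = 0.579). Pecam1, the endothelial marker CD31, was at 414 to 580 against 555 to 701 (-0.23, adjusted p = 0.544), and 8 of 12 endothelial genes were lower.

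In all, 10 genes differed by more than 1, 4 higher and 6 lower, and apart from the muscle genes they were named after their values were seen. The 4 higher genes were Acta1, Myh4, Myh2 and Myh1, all of muscle. The lower ones were Hspa1b, given above, and 5 others. Gnao1, a G protein subunit, had 39.5, 22.8, 22.7, 32.0 and 23 normalized read counts in the combination tumors and 313, 109, 128, 108 and 149 in the anti-PD-1 tumors, with no overlap (-1.10, SE 0.29, adjusted p = 0.419). Col6a5, a collagen VI chain, had 12.6, 156, 94.4, 280 and 267 against 513, 408, 525, 415 and 1063 (-1.46, SE 0.51, adjusted p = 0.513), also without overlap. Eps8l2, an actin regulator, was at 51.6 to 137 against 182 to 666 (-1.05, adjusted p = 0.513), Mgp, the matrix Gla protein, at 413 to 859 against 559 to 2150 (-1.11, adjusted p = 0.627) and Igf2 at 56.7 to 474 against 168 to 2283 (-1.05, adjusted p = 0.7).

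H19, the non-coding RNA beside Igf2 on chromosome 7, was higher. The pair is imprinted, with H19 made from the maternal and Igf2 from the paternal copy. H19 (142575530 to 142578146) had 52.9, 69.3, 196, 160 and 102 normalized read counts in the combination tumors and 10.3, 24.6, 24.9, 23.8 and 9.55 in the anti-PD-1 tumors, with no overlap (0.99, SE 0.30, adjusted p = 0.449). Its highest values were in combination tumors 3, 4 and 5, which carried muscle RNA, whereas anti-PD-1 tumor 3, which did too, was at the level of anti-PD-1 tumors 2 and 4. Without these 4 tumors H19 differed by 0.63, and the part of muscle RNA in its difference was not tested. Mycn, a transcription factor of the Myc family chosen in the same way, had 539, 556, 536, 450 and 476 against 288, 373, 259, 301 and 272 (0.60, SE 0.17, adjusted p = 0.423), and its lowest combination tumor stood above its highest anti-PD-1 tumor.

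Whether chitin did the same without anti-PD-1 was tested as the difference between the combination minus anti-PD-1 contrast and the chitin minus untreated contrast, over the 20 66cl4 tumors. No gene passed an adjusted p of 0.05 (0 of 14318, smallest 0.0585), 714 (4.99%) had an unadjusted p under 0.05, and limma-voom called 0 with 700 (4.89%) at such a p. The 3 smallest p were those of Zfp345, Per1 and Ppl. Zfp345 was higher by 0.23 under anti-PD-1 and differed by -0.18 without it, a difference of 0.41 (SE 0.07, adjusted p = 0.0585). Per1 differed by -0.72 under anti-PD-1 and by 0.56 without it (difference -1.28, SE 0.27, adjusted p = 0.841), and Ppl by -0.67 and 0.14 (difference -0.81, SE 0.18, adjusted p = 0.841). Per2, in contrast to Per1, was lower in both, by -0.85 and -0.41, and Egln3 by -0.92 and -0.73.

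These contrasts share no tumor. Across the 14318 genes their differences had a Spearman correlation of 0.34 (0.31 at equal depth), and 61.7% of genes had the same sign, as had 855 of the 1188 genes at an unadjusted p under 0.05 (72.0%). Genes are not independent replicates, and the points share more than treatment, since the chitin-containing groups were the more deeply sequenced in both contrasts (means 9441593 and 10361555 against 6399535 and 6494264 reads). The glycolysis and hypoxia list had a median of -0.27 under anti-PD-1 and -0.21 without it, the unfolded protein list -0.24 and -0.16, and the clock list -0.29 and -0.03. The MHC class II list had 0.26 and 0.80, and the muscle list 0.77 and -0.41. The cytotoxic and natural killer list had 0.05 and 0.08, with 5 of 17 genes lower in each. Tigit differed by -0.44 under anti-PD-1 and by -0.43 without it.

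**Figure D5:**
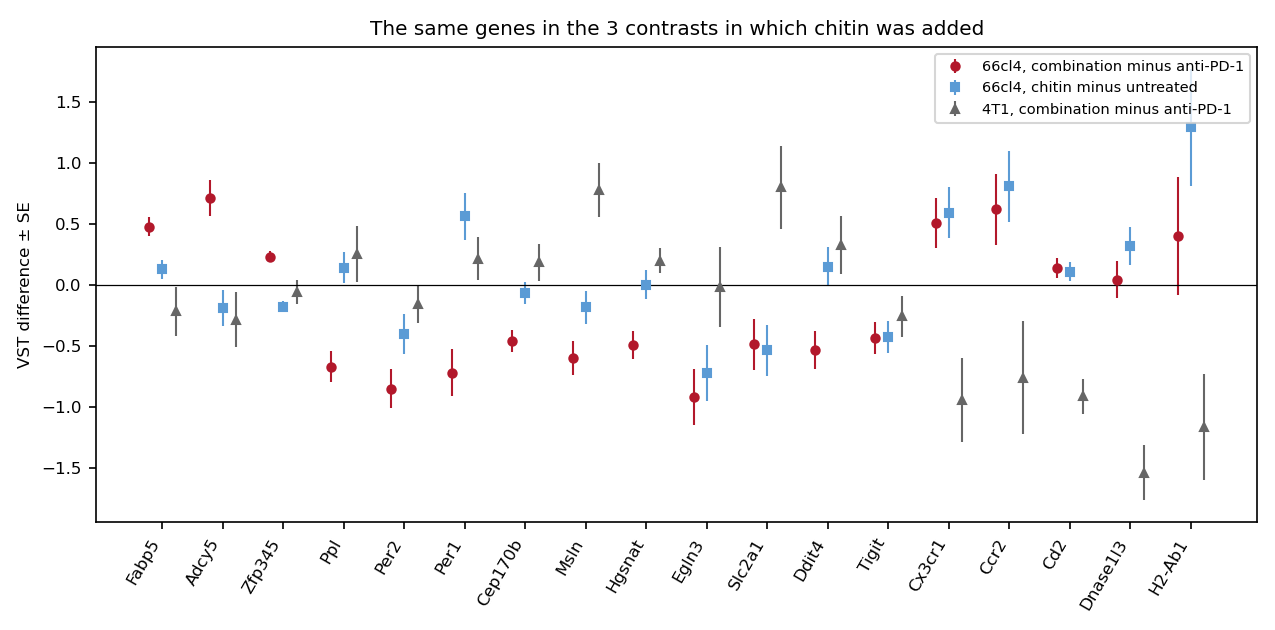
Difference ± SE (VST units) of 18 genes when chitin was added to anti-PD-1 in 66cl4 tumors (circles), given alone in 66cl4 tumors (squares) and added to anti-PD-1 in 4T1 tumors (triangles). Per1 lies at -0.72, 0.56 and 0.21, Egln3 at -0.92, -0.73 and -0.02, and Cd2 at 0.14, 0.11 and -0.91.

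Whether chitin did the same in the 4T1-based model was tested over all 39 tumors as the difference of the combination minus anti-PD-1 contrasts. The count was 0 of 14318 at an adjusted p of 0.05 (smallest 0.111), with 1652 genes (11.5%) at an unadjusted p under 0.05, and limma-voom called 0 with 1616 (11.3%) at such a p. This count rested on single 4T1 tumors, since it was 639 without 4T1 anti-PD-1 tumor 2 and 104 without 4T1 combination tumor 5, and 1941 when the tumors were weighted by their quality. The 3 smallest p were those of Cd2, Dnase1l3 and Hgsnat. Cd2, an adhesion receptor of T cells, differed by 0.14 in 66cl4 and -0.91 in 4T1 (difference 1.05, SE 0.20, adjusted p = 0.111). Dnase1l3, a nuclease of dendritic cells, differed by 0.04 and -1.54 (difference 1.58, SE 0.32, adjusted p = 0.131), and Hgsnat by -0.50 and 0.20 (difference -0.69, SE 0.14, adjusted p = 0.131).

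By list, 14 of 16 T-cell receptor genes had an unadjusted p under 0.05 for this difference, beside 11.5% of all genes, with medians of 0.04 in 66cl4 and -0.81 in 4T1. The corresponding counts were 7 of 13 macrophage genes (0.19 and -0.72), 7 of 10 MHC class II genes (0.26 and -0.72), 7 of 7 B and plasma cell genes (-0.03 and -1.10) and 10 of 19 glycolysis and hypoxia genes (-0.27 and 0.35). Msln differed by -0.60 in 66cl4 and 0.78 in 4T1 (difference -1.38, SE 0.31, adjusted p = 0.131). Across genes the 2 contrasts, which share no tumor, had a Spearman correlation of -0.13, and 46.1% of genes had the same sign.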

How the data were processed

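RNA of 40 primary tumors was sequenced from stranded libraries. Untreated 4T1 tumor 3 has no column in the table used here, and per the study's methods it was taken out for degraded RNA, which leaves 39 tumors. Per the study's methods, the authors aligned reads with HISAT2 to mm10, counted them per gene and kept genes with enough reads. The authors deposited log2-like values, made from the counts by the variance stabilizing transformation of DESeq2 over all tumors. The table held 14318 genes, and every sample column was used. The transformation was inverted, which gave whole reads (within 0.001 reads) for 100% of the values, and hence each tumor's total reads, size factor and normalized read counts.

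The deposited values of the 20 66cl4 tumors were fitted with limma 3.58.1 in R 4.3.3 (treatment group, moderated variance with a mean trend), with Benjamini-Hochberg adjustment over all genes and a threshold of 0.05. Differences between contrasts were tested in the same way, over all 39 tumors for 4T1. The fit was also run on simulated counts, with known changes in well-expressed genes and the same spread setting for every gene. That run does not show how the fit handles tumors of uneven tissue content, and its result is not given here. Alternatives were limma-voom on the recovered reads, equal depth (reads thinned to 5105898 per tumor), filters, scalings, tumor weights, the tumor number as a block and leaving out each tumor. Leaving out tumors high in muscle or adipocyte genes and the muscle gene mean as a covariate were chosen after seeing the data.

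The comparison and the gene lists were chosen with earlier results of these data known. The text names the 12 genes with the smallest p in each direction, the genes the study measured as RNA, its chitinase-like and cytokine genes, in other lists the 4 members with the smallest p and the most abundant one, and the 3 genes with the smallest p for each difference between contrasts. Gene models and unnamed genes were passed over, 1 gene that the rule names is not reported here, and other genes are said to be chosen after their values were seen. Promoters were taken from RefSeq (GRCm38.p6). All 10 tumors had 5755757 to 13084865 reads, which limits what can be seen for genes of a few reads.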

Additional observations from a re-analysis of the deposited data

Results flagged for a closer look

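In the 2 groups, 372 sets of 5 tumors (each named gene on the VST scale, and each gene list as its mean VST value) were examined for a single tumor that stood apart. A tumor was flagged where its gap to the nearest other tumor, divided by the range of its group, was above Dixon's 95% critical value for 5 samples, and 22 were. Chance flags about 1 in 20 groups.

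Among single genes, the highest anti-PD-1 tumor stood apart for Xbp1 (tumor 4, 10.76), Col5a2 (tumor 2, 11.01), Myh4 (tumor 3, 7.76), Acta1 (tumor 3, 8.34), Ckm (tumor 3, 7.37), Gnao1 (tumor 1, 8.77), Col6a5 (tumor 5, 10.22) and Myh1 (tumor 3, 7.32). Among single genes, the lowest anti-PD-1 tumor stood apart for Egln3 (tumor 2, 7.61) and Smad7 (tumor 2, 8.84). Among single genes, the highest combination tumor stood apart for Cd8a (tumor 2, 7.21) and Adipoq (tumor 1, 8.13). Among single genes, the lowest combination tumor stood apart for Dlx3 (tumor 4, 7.72) and Snai2 (tumor 4, 7.60). 

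Among list means, an anti-PD-1 tumor stood apart for chemokines and chemokine receptors (tumor 3, highest at 8.79), mesenchymal transition (tumor 2, highest at 10.11), skeletal muscle (tumor 3, highest at 7.21) and mast cells and eosinophils (tumor 2, highest at 8.28). Among list means, a combination tumor stood apart for M2-type macrophage markers (tumor 2, lowest at 10.29), chitinase-like proteins and chitin receptors (tumor 1, highest at 8.59), adipocytes (tumor 1, highest at 9.01) and skin keratinocytes (tumor 4, highest at 6.84).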

How the results depend on the processing

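The count of 0 genes called when chitin was added to anti-PD-1 was 2 with tumor weights (Fabp5 and Per2), 1 with both models in the fit (Per2) and from 0 to 3 when each tumor was left out, the 3 being Per2, Fabp5 and Hgsnat without anti-PD-1 tumor 3. The 1188 genes at an unadjusted p under 0.05 were 420 with both models in the fit, 645 without the tumors high in muscle genes and from 885 to 1485 when each tumor was left out. The 277 genes whose groups did not overlap were from 370 to 696 when each tumor was left out, since fewer tumors overlap less often. For the difference from chitin alone, 1 gene was called with median centring, 1 without the mean-variance trend and from 0 to 1 when each tumor was left out (1 without chitin tumor 4). For the difference from 4T1, 1941 were called with tumor weights, 5 with quantile normalization, 14 with the replicate block and from 0 to 639 when each tumor was left out (639 without 4T1 anti-PD-1 tumor 2, 104 without 4T1 combination tumor 5 and 1 without 66cl4 anti-PD-1 tumor 3). The cause of these shifts was not tested.

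Whether tumor numbers pair the tumors is not given in the sources used here. Deviations from the group means of same-numbered combination and anti-PD-1 tumors correlated between -0.07 and 0.25 across 5000 genes, and 1 of 5 tumors correlated best with its own number. With the tumor number as a block, 0 genes were called and 1274 had an unadjusted p under 0.05.

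Of 141 named genes, 116 kept their direction under every alternative run. Most of the other 25 differed little from 0. With limma-voom the difference was -0.052 for Cd3e, -0.32 for Ifng, -0.61 for Chil1, -0.93 for Epcam and -0.070 for Dnase1l3. Tumor weights gave -0.011 for Ifng and -0.0087 for Tgfb1, and quantile normalization -0.025 for Ifng. At equal depth it was -0.0053 for Chid1, -0.016 for Ccl2 and -0.0065 for Tgfb1. Without the tumors high in adipocyte genes it was -0.10 for Nr1d2, -0.15 for Ccl2, -0.0081 for Il6 and -0.070 for Tgfb1. Without those high in muscle genes it was 0.020 for Cd8a, 0.15 for Cd274, 0.0066 for Itgam, -0.0039 for Chid1, -0.0071 for Tmem219, 0.042 for Il10, 0.0072 for Il4, -0.049 for Ryr1, -0.060 for Acta1, -0.12 for Ckm and -0.14 for Myh1. With the muscle gene mean as a covariate it was 0.063 for Cd274, -0.0051 for Chil3, -0.010 for Chid1, -0.039 for Tmem219, -0.24 for Ccl2, -0.024 for Tgfb1, -0.052 for Ckm, -0.014 for Krt8 and -0.12 for Myh1. When each tumor was left out, the difference ran from -0.098 to 0.14 for Nr1d2, -0.060 to 0.070 for Cd3e, -0.039 to 0.074 for Ifng, -0.15 to 0.040 for Cd274, -0.20 to 0.024 for Itgam, -0.00022 to 0.60 for Cd74, -0.048 to 0.26 for Chil1, -0.0073 to 0.029 for Chid1 and -0.12 to 0.15 for Ccl2. For the rest it ran from -0.0079 to 0.062 for Il6, -0.097 to 0.0027 for Il10, -0.046 to 0.064 for Tgfb1, -0.056 to 0.024 for Il4, -0.11 to 0.45 for Adipoq, -0.047 to 0.35 for Epcam, -0.030 to 0.17 for Ptprc and -0.073 to 0.15 for Dnase1l3.

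The groups held 5 tumors each and differed in read depth and in muscle content, and their effects on the rest cannot be fully told apart. Genes of a few reads, such as Chil3, Il6 and Csf3, were too low for a difference to be seen at this depth.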

Other observations

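Genes of cholesterol synthesis and uptake were lower by small amounts in the combination tumors, 18 of 20 with a median difference of -0.09. Lss, which closes the ring of the sterol precursor lanosterol, was the only 1 at an unadjusted p under 0.05 (-0.20, limma adjusted p = 0.556). Of 12 epithelial genes 11 were higher, with 0 at such a p, and the keratin gene Krt18 differed by 0.19. Of 6 measured milk and lactation genes 5 were lower, and Xdh, which coats milk fat droplets, differed by -0.19 (limma adjusted p = 0.579). Of 12 neutrophil genes 5 were higher and 7 lower, and of 21 type I interferon genes 11 were higher and 10 lower, with 0 at an unadjusted p under 0.05 in both lists.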
